A study of Mus musculus with 6 samples.

Results

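Proteasome subunit transcripts were compared between 3 control and 3 E2 arrays of fetal mouse prostate mesenchyme. All probe sets whose annotated symbol began with Psma, Psmb, Psmc, Psmd or Psme and a number were taken, 77 of the 22690 probe sets on the array. Of these, 75 belonged to 42 subunit genes, out of 12394 genes that the array names. The assembly chaperones Psmd5, Psmd9 and Psmd10 bear subunit names and are counted among the subunit genes. The other 2 probe sets belonged to genes that only share the letters. Of the 75, 60 probe sets of 41 genes reached a mean of 10 units in control or in E2 and were tested.

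The cells were cultured from the prostatic urogenital sinus (UGS) mesenchyme of male CD-1 fetuses on gestation day 17, after the epithelial cells had been discarded, and were used at first passage. Before passage they grew in medium whose serum still held its own steroid hormones. After passage, all cells received 690 pM dihydrotestosterone (DHT, an androgen) in medium with charcoal-stripped serum. They were held for 3 days without estrogen and then for 4 days, with the medium renewed every day, in 100 nM estradiol (E2 group, 3 arrays) or in ethanol vehicle (control group, 3 arrays). CD-1 is an outbred stock, and the cultures are mixed primary cells and not a clone. The study used this dose to ask which genes respond to a high concentration of estradiol in these cells.

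The proteasome is the cell's main machine for degrading proteins tagged with ubiquitin. Its barrel, the 20S core, is built from alpha subunits (Psma genes), which form the gate, and beta subunits (Psmb genes), a few of which cut peptide bonds. The 19S cap carries ATPases (Psmc genes) that unfold the substrate and non-ATPase subunits (most Psmd genes) that hold and strip ubiquitin. In the immunoproteasome, which interferon induces and leukocytes carry constitutively, Psmb8, Psmb9 and Psmb10 replace the catalytic Psmb5, Psmb6 and Psmb7, and the activator formed by Psme1 and Psme2 replaces or accompanies the cap. These exchanges favour peptides that fit major histocompatibility complex class I.

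Upstream sequences are shown for 3 genes. Psmb8 and the assembly chaperone Psmd9 had the clearest differences in each direction among the genes counted as subunit genes. Psmb5 is the constitutive counterpart of Psmb8. Each sequence covers the 150 bases before the annotated start, read on the gene's strand from the RefSeq promoter table (GRCm38.p6). Psmb8 lies at chr17:34198045-34198194 on the plus strand, and the capitals mark the core of a gamma-activated site. Psmb5 lies at chr14:54617996-54618145 on the minus strand, and Psmd9 at chr5:123228040-123228189 on the plus strand. In these last sequences the capitals mark the core of an antioxidant response element.
Psmb8: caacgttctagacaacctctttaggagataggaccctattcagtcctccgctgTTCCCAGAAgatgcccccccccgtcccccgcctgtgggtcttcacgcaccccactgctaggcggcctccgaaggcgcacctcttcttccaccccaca
Psmb5: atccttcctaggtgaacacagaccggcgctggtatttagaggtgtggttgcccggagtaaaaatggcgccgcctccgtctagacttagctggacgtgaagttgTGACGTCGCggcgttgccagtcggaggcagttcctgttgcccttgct
Psmd9: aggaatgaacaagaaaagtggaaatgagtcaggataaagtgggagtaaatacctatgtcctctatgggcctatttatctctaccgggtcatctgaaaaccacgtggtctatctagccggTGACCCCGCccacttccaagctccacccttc

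The promoter table held 38 promoters of 35 of the 42 subunit genes, each with 250 bases before and 50 after the start. The antioxidant response element core, TGACNNNGC, is the kind of sequence read by Nfe2l1, a known regulator of proteasome genes, and by Nfe2l2. On either strand it was present in 6 of the 38 promoters (15.8%) and in 12.4% of all 32851 promoters. It lay at -47 to -39 in Psmb5, -9 to -1 in Psmb6 and -31 to -23 in Psmd9. The CCAAT box, the letters CCAAT on either strand, was found in 13 subunit promoters (34.2%) and in 37.4% of all. The gamma-activated site core, TTCNNNGAA, bound by STAT factors downstream of interferon, was found in 2 subunit promoters, those of Psmb8 (-97 to -89) and Psmd2 (5 to 13), or 5.26% beside 8.3% of all. A full estrogen response element, GGTCA, any 3 bases, then TGACC, was in 0 of the 38 and in 23 (0.07%) of all. These matches describe letters in a short window only.

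Array medians ran from 13.7 to 21.8 units as deposited, a ratio of 1.59. Signals below are scaled to a common array median, apart from the 18S values, which are as deposited. Control replicate 3 and E2 replicate 2 stood apart in the 5′ probe set for 18S ribosomal RNA, with 281 and 288 units beside 22.8 to 44.7 on the other arrays. The other 18S probe sets did not set both apart. In the middle set E2 replicate 2 gave 14.07 units, below E2 replicate 3 at 17.99. In the 3′ set control replicate 3 gave 38.6, close to E2 replicate 3 at 34.6. Control replicate 3 and E2 replicate 2 also had the lowest array medians as deposited. High 18S signal below refers to the 5′ set on those arrays. Values without those arrays are given beside some of the results that they moved, and in the last section for some others. Mesenchyme markers were present in both groups, with Vim at a mean of 1797 units in control and 1717 in E2 and Col1a1 at 3427 and 3233, and none of the 6 tested passed the threshold in limma. The summed signal of 7 epithelial markers was 53.0 to 88.2 units in control and 130 to 136 in E2, with Cdh1, Epcam and Krt5 under 10 units in both groups on average and Krt18 past the threshold in limma (adjusted p 0.0416). The summed signal of 15 macrophage and leukocyte markers was 744 to 1237 in control and 692 to 809 in E2, ranges that overlap. All 14 tested had negative differences, of which 0 passed the threshold in limma and 3 had an unadjusted p under 0.05. Over all probe sets tested, 0.745% passed the threshold, 4.55% were lower at an unadjusted p under 0.05 in limma and 43.4% had positive differences. In bulk RNA, fewer cells of a type and less RNA per cell cannot be told apart. Nothing in the labels says that arrays came from separate cultures or litters, so p-values measure the spread between these arrays, which may be technical.

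No proteasome subunit passed the test for E2. Of the 60 probe sets, 0 had an adjusted p under 0.05 in limma, beside 0.745% of all 14223 probe sets tested. At an unadjusted p under 0.05, 1 probe set was higher with E2 (Psmb8) and 1 lower (Psmd9), beside 3.44% higher and 4.55% lower over the whole array. None was both past 1.5-fold and at p of 0.05 or less, beside 3.94%. The 3 E2 arrays lay above all control arrays for 1 probe set and below them for 1, beside 5.72% and 8.49%. A positive difference was seen for 24 of the 60, and for 17 of the 41 genes by the brightest probe set of each, beside 43.4% of all probe sets. These shares are near or below those of the array as a whole.

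The size of the differences was small for the core and the cap. The median log2 difference, E2 minus control, was -0.005 over the 14 core genes (range -0.20 to 0.17) and -0.005 over the 17 cap genes (range -0.12 to 0.04). On values as deposited both medians were 0.06 and after quantile normalization 0.06 and 0.05, so their sign depends on the scaling. The median was 0.16 over the 5 immunoproteasome genes (range -0.10 to 0.47). Over all probe sets tested the median was -0.04, and it was -0.06 over the 3668 with a mean of 100 units or more, the range in which all core and cap genes fell. Positive differences were found for 7 of 14 core genes, 7 of 17 cap genes and 3 of 5 immunoproteasome genes.

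**Figure D1:**
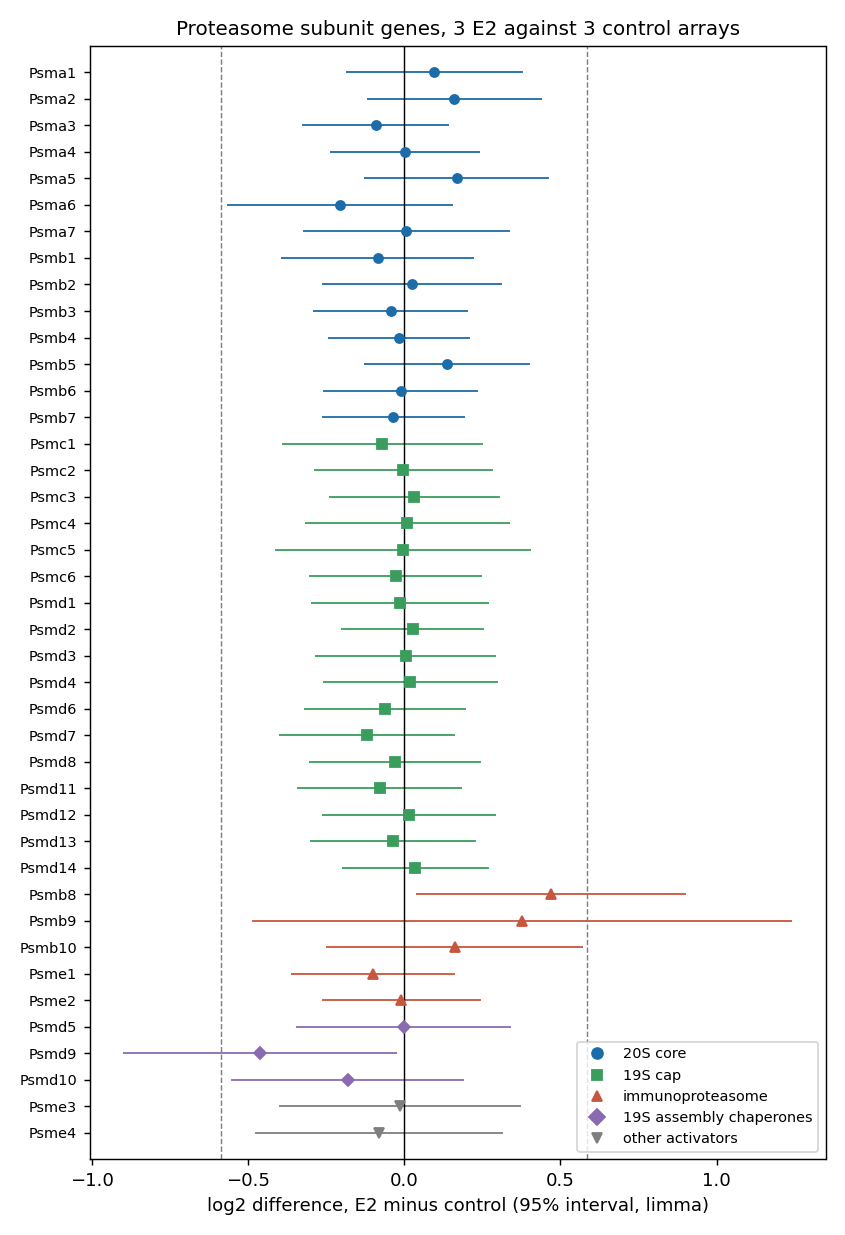
Log2 difference in signal, E2 minus control, of the 41 subunit genes tested, each by its brightest probe set, with the 95% interval from limma (3 arrays per group). Dashed lines mark 1.5-fold, and the core and cap genes lie between -0.20 and 0.17 with intervals that end inside the lines, while the intervals of Psmb8, Psmb9 and Psmd9 cross one of them.

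Intervals for single genes show what size of difference the spread between these arrays allows. They do not cover a spread between cultures or litters, or the choice of scaling. By brightest probe set, the 95% interval of the log2 difference lay within 1.5-fold in either direction (0.58) for all 31 core and cap genes. The outermost bounds were -0.57 for Psma6 and 0.46 for Psma5. Intervals of dimmer probe sets of some of these genes went past 1.5-fold. A Psmd11 probe set with means of 194 units in control and 169 in E2 reached -0.64. Intervals lay within 1.5-fold for 84.4% of the 3668 probe sets of 100 units or more and for 41.2% of all tested. In those sets a gene can have several probe sets, so the shares are not matched to the 31. A log2 difference smaller than 0.2 was measured for 30 of the 31 genes (96.8%), and for 76.4% of the probe sets of 100 units or more. The median size of the log2 difference, without its sign, was 0.06 in the core, 0.03 in the cap and 0.11 over the probe sets of 100 units or more. Smaller differences than these intervals span were not detectable with 3 arrays per group.

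In the alpha ring, which forms the gate of the barrel, Psma2 gave 399, 404 and 498 units on control arrays 1 to 3 and 521, 511 and 420 on E2 arrays 1 to 3. The groups overlapped, and the log2 difference of 0.16 had an adjusted p of 0.819 in limma. Psma5 gave 206, 272 and 283 units in control and 277, 288 and 281 in E2. Here control replicate 1 was the low array, the other 5 lying close together (log2 difference 0.17, SE 0.14, limma adjusted p 0.820). A dimmer Psma5 probe set, with means of 160 units in control and 154 in E2, gave -0.05. Psma6 gave 371, 379 and 361 units in control and 413, 235 and 341 in E2, so that E2 replicate 2, an array of high 18S signal, was the low one. Its log2 difference of -0.20 (SE 0.17, limma adjusted p 0.820) became 0.02 without that array. Psma1 and Psma3 differed by 0.10 and -0.09 on the log2 scale. The median over the 7 alpha genes was 0.01.

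In the beta ring, the 3 constitutive catalytic subunits carry the activities named chymotrypsin-like (Psmb5), caspase-like (Psmb6) and trypsin-like (Psmb7). Psmb5 gave 377, 432 and 486 units in control and 497, 485 and 436 in E2, with a log2 difference of 0.14 (95% interval -0.13 to 0.40, limma adjusted p 0.847). Psmb6 gave 383, 403 and 417 units in control and 425, 361 and 409 in E2, a difference of -0.01 (-0.26 to 0.24, adjusted p 0.988). Psmb7 gave 590, 607 and 634 units in control and 630, 560 and 598 in E2, a difference of -0.04 (-0.26 to 0.19, adjusted p 0.965). The groups overlapped for all 3 genes. The median over the 7 beta genes was -0.02, and none of the 14 core genes had an unadjusted p under 0.05.

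By brightest probe set, the 19S cap showed the narrowest spread of differences of the 3 parts. With all tested probe sets counted, it did not. Cap differences then ran from -0.41 (Psmd6) to 0.49 (Psmd4) and core differences from -0.24 (Psma6) to 0.17 (Psma5). The values that follow are by brightest probe set. The median log2 difference was -0.004 for the 6 ATPases, 0.02 for Psmd1, Psmd2 and Psmd4, the scaffold and ubiquitin receptor subunits of the base, and -0.03 for the 8 lid subunits. Psmd2, a scaffold of the base, is an example of a steady signal, at 450, 471 and 461 units in control and 474, 459 and 475 in E2 (log2 difference 0.03). Psmd14, the lid enzyme that removes ubiquitin from the substrate, gave 422, 425 and 453 units in control and 432, 468 and 433 in E2 (0.04, limma adjusted p 0.966). The ranges of the groups overlapped for both genes.

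Psmd7, the lid partner of Psmd14, had the smallest p of the cap genes. It gave 178, 181 and 216 units in control and 171, 176 and 181 in E2, with overlap only at the border between the groups (log2 difference -0.12, SE 0.13, limma adjusted p 0.881, and -0.03 without both high 18S arrays). The lid subunits Psmd11, Psmd6 and Psmd13 differed by -0.08, -0.06 and -0.04, and the ATPase Psmc1 by -0.07. No cap gene had an unadjusted p under 0.05. A dim probe set of the ubiquitin receptor Psmd4, named here after its values were seen, was the 1 probe set with all E2 arrays above control, at 21.6, 18.7 and 21.1 units against 26.4, 29.6 and 30.2. Its log2 difference was 0.49 (SE 0.23, limma adjusted p 0.632), while the brighter probe sets of the same gene gave 0.02 and -0.04.

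Several genes were read by more than 1 probe set. Of the 42 genes, 19 had several probe sets and 14 had several that were tested, and for 8 of the 14 the differences had both signs. The dimmer probe sets held most of the wide differences, among them -0.41 for a Psmd6 probe set with control values of 38.7 to 55.8 units, while the brightest Psmd6 probe set gave -0.06. Annotated probe sets of a gene can detect different transcript ends, and which ends was not analysed here.

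**Figure D2:**
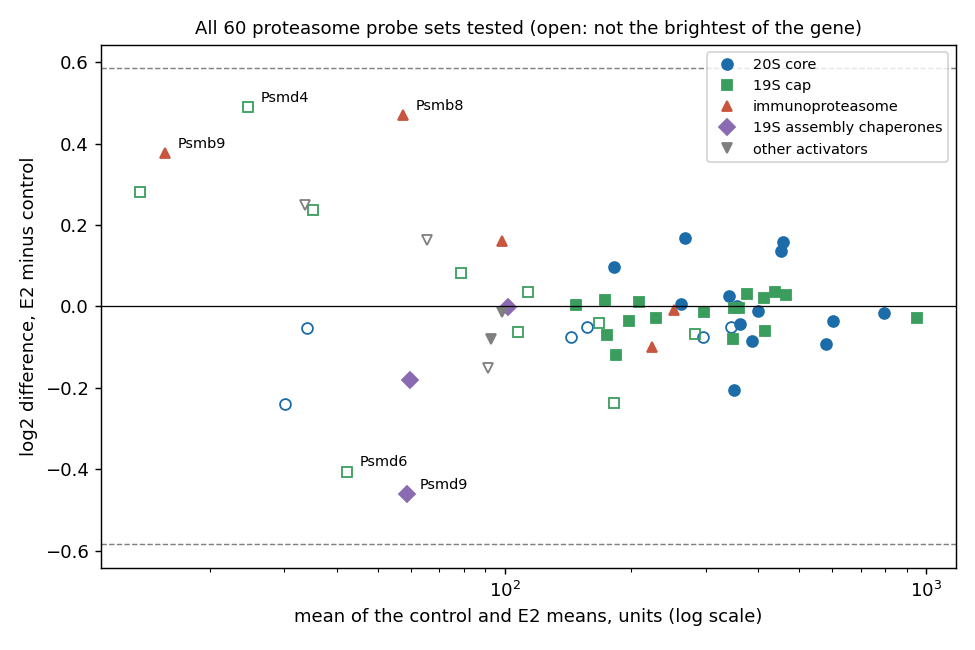
Log2 difference, E2 minus control, of the 60 subunit probe sets tested against their mean signal in units (log axis), with dashed lines at 1.5-fold and open symbols for probe sets that are not the brightest of their gene. The core and cap genes (filled circles and squares) lie between -0.20 and 0.17, and the widest differences belong to dim probe sets.

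Psmb8, the immunoproteasome subunit that replaces Psmb5, had the largest positive difference of the 41 genes. It gave 38.9, 53.8 and 50.9 units on the control arrays and 65.5, 81.3 and 53.2 on the E2 arrays. E2 replicate 3 lay below control replicate 2, so the groups overlapped. The mean was 47.9 ± 7.85 units in control and 66.7 ± 14.1 in E2 (SD, n = 3), a 1.39-fold difference, with a log2 difference of 0.47 (SE 0.20, 95% interval 0.04 to 0.90). In limma the unadjusted p was 0.0349 and the adjusted p 0.587. Without E2 replicate 2, the high 18S array that gave the highest value, the log2 difference was 0.32 and the unadjusted p 0.137, and without control replicate 1 they were 0.33 and 0.154.

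Psmb9, which replaces Psmb6, was close to the 10-unit limit, at 7.56, 18.6 and 15.5 units in control and 12.2, 21.3 and 18.4 in E2. Its log2 difference of 0.38 had an interval from -0.49 to 1.24 (limma adjusted p 0.877), and it was -0.01 without control replicate 1, the array at 7.56. Psmb10, which replaces Psmb7, gave 94.7, 111 and 73.4 units in control and 112, 120 and 80.6 in E2. Its replicate 3 arrays were the low ones in both groups, and the log2 difference was 0.16 (-0.25 to 0.57, limma adjusted p 0.894) and -0.11 without both high 18S arrays. Neither gene separated the groups.

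The activator subunits Psme1 and Psme2, which form the ring that opens the core in interferon-treated cells, were measured more tightly. Psme1 gave 215, 248 and 233 units in control and 212, 220 and 215 in E2, with the E2 arrays at the low end of the control range (log2 difference -0.10, interval -0.36 to 0.16, limma adjusted p 0.898). Psme2 gave 237, 262 and 263 units in control and 242, 256 and 259 in E2 (-0.01, interval -0.26 to 0.25, adjusted p 0.991). Its probe set is annotated also to Psme2b, a near copy from which it cannot be told apart. The differences of the 5 immunoproteasome genes thus did not share a direction, the catalytic subunits being positive and the activator subunits at or below 0.

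**Figure D3:**
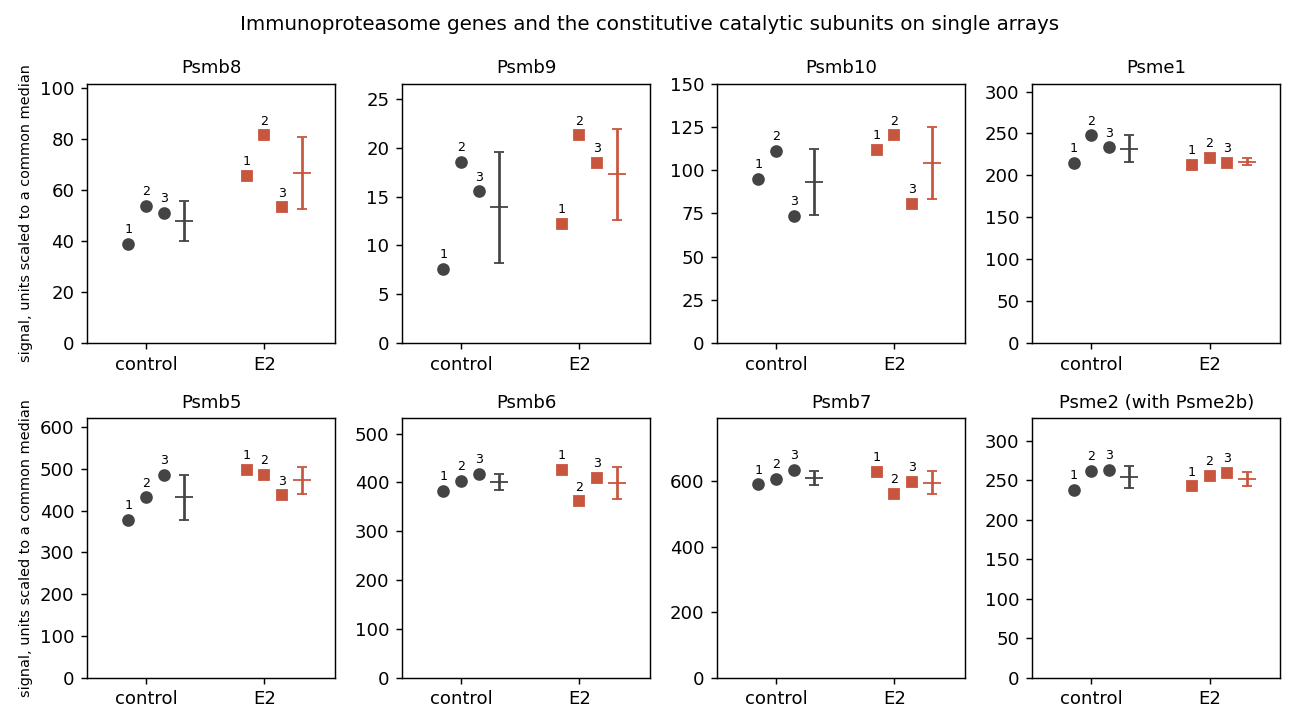
Signal on each array (points, numbered by replicate) of the 5 immunoproteasome genes and of the constitutive catalytic Psmb5, Psmb6 and Psmb7, in units scaled to a common array median, with the mean and SD of each group (n = 3). The 2 groups overlap in each of the 8 panels, and the Psmb8 values run from 38.9 to 53.8 in control and from 53.2 to 81.3 in E2.

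For each catalytic immunoproteasome subunit and the constitutive subunit it replaces, the log2 ratio of RNA signals was taken within each array. The exchange of the proteins in the particle was not measured. The Psmb8 to Psmb5 ratio was 0.33 higher with E2 (SE 0.16), the Psmb9 to Psmb6 ratio 0.39 higher (SE 0.48) and the Psmb10 to Psmb7 ratio 0.20 higher (SE 0.28). Exact two-sided permutation tests gave p = 0.2, 0.6 and 0.6, each 0.6 after adjustment over the 3 pairs, and 0.1 is the smallest p that 3 arrays against 3 can give. The ratios compare change between groups, since signals of different probe sets have no common scale.

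Psmb8 and Psmb9 lie together in the class II region of the major histocompatibility complex on chromosome 17, in the RefSeq order Psmb9, Tap1, Psmb8, Tap2. Tap1 and Tap2 form the transporter that carries proteasome products into the endoplasmic reticulum. Tap1 gave 27.8, 27.8 and 48.1 units in control and 18.8, 35.9 and 14.3 in E2, with overlap and a log2 difference of -0.65 (SE 0.33, limma adjusted p 0.675). Single arrays moved it widely, to -1.03 without E2 replicate 2 (limma adjusted p 0.21), -0.38 without control replicate 3 and -0.36 without E2 replicate 3. The difference was opposite in sign to those of Psmb8 and Psmb9, and neither it nor theirs passed the test. Psme1 and Psme2 lie on chromosome 14 with Emc9 between them.

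In a list of 13 class I presentation and interferon genes, 11 were tested and 0 passed the threshold in limma, beside 0.745% of all probe sets tested. In either direction 0 had an unadjusted p under 0.05 in limma, beside 3.44% higher and 4.55% lower of all. The median log2 difference was -0.07. The trimming peptidase Erap1 differed by -0.30 (-0.09 without E2 replicate 2), the class I heavy chains H2-D1 and H2-K1 by -0.11 and 0.08, and Irf1, an interferon-induced transcription factor that drives Psmb9, by 0.04. The leukocyte marker sums given above were on average lower with E2, and the epithelial sums higher. What part such cells have in the signals of Psmb8, Psmb9 and Psmb10 was not tested.

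The array medians of the 3 parts were followed to see whether single arrays carried the result. Relative to each gene's control mean, the median log2 deviation of the core was -0.07, -0.01 and 0.08 on control arrays 1 to 3 and 0.05, -0.07 and -0.004 on E2 arrays 1 to 3. The cap gave -0.04, -0.005 and 0.08 in control and 0.04, -0.13 and 0.01 in E2. The core and cap thus shifted with the same arrays, and so did all probe sets of 100 units or more, at -0.04, -0.01 and 0.05 in control and 0.01, -0.17 and 0.003 in E2. Of the 31 core and cap genes, 16 had their lowest value on E2 replicate 2 and 11 their highest on control replicate 3, the arrays with high 18S signal. On arrays without it, 12 had their highest value on E2 replicate 1 and 8 their lowest on control replicate 1. Without both high 18S arrays the core median was 0.07 and the cap median 0.05.

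The immunoproteasome medians were -0.11, 0.18 and 0.05 in control and -0.07, 0.39 and 0.03 in E2. The highest of these was on E2 replicate 2, the array on which the core and cap were low, and 3 of the 5 genes had their highest value there. Control replicate 1 held the lowest value of 3 of the 5. The median log2 difference of 0.16 was 0.05 without E2 replicate 2, 0.02 without control replicate 3, -0.01 without control replicate 1 and 0.31 without E2 replicate 3.

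**Figure D4:**
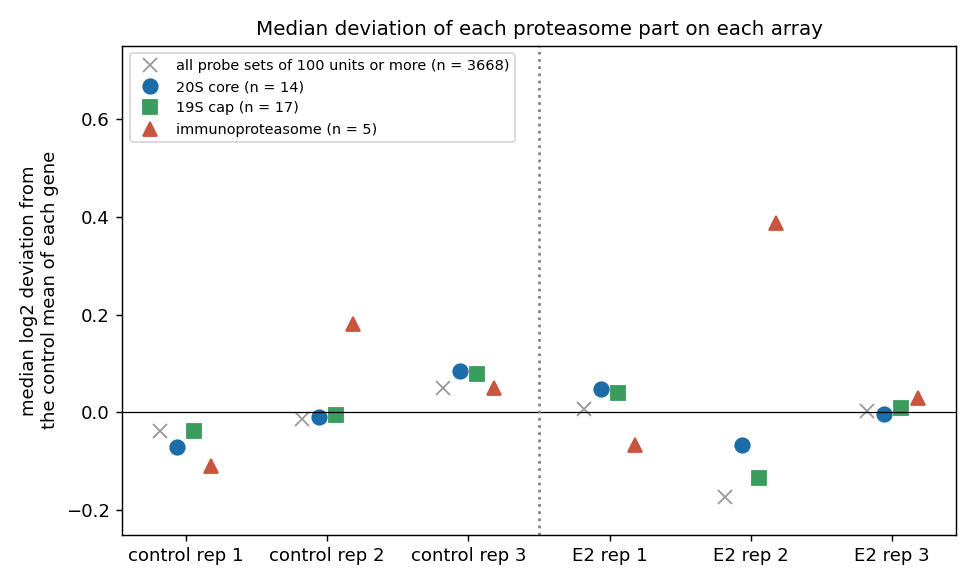
Median log2 deviation from each gene's control mean on each of the 6 arrays, for the 14 core, 17 cap and 5 immunoproteasome genes and for the 3668 probe sets of 100 units or more. Core and cap stay between -0.13 and 0.08 and follow the crosses, and the immunoproteasome reaches 0.39 on E2 replicate 2.

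Outside the finished particle, Psmd5, Psmd9 and Psmd10 encode chaperones that help assemble the base of the cap and then leave it. Psmd9 gave 63.6, 70.0 and 68.2 units in control and 55.2, 35.3 and 59.9 in E2, so that all E2 arrays lay below all control arrays. The mean was 67.3 ± 3.28 units in control and 50.1 ± 13.1 in E2 (SD, n = 3), with a log2 difference of -0.46 (SE 0.20, 95% interval -0.90 to -0.02). In limma the unadjusted p was 0.0409 and the adjusted p 0.607. Without E2 replicate 2, the lowest array and one of high 18S signal, the difference was -0.23 (unadjusted p 0.181).

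Psmd10 gave 53.6, 62.6 and 74.7 units in control and 55.6, 54.6 and 56.7 in E2, the control arrays being the more spread (log2 difference -0.18, limma adjusted p 0.856, and -0.04 without both high 18S arrays). Psmd5 gave 83.4, 107 and 116 units in control and 98.4, 95.0 and 110 in E2 (-0.002, adjusted p 0.999). The alternative activators showed no separation either. Psme3, a nuclear activator, gave 99.2, 89.8 and 105 units in control and 102, 74.0 and 120 in E2 (-0.01). Psme4, which supports histone degradation, gave 95.3, 103 and 85.6 in control and 88.0, 69.9 and 116 in E2 (-0.08), and its other probe sets gave -0.15 and 0.16.

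Of 17 assembly and associated factors, 15 were tested and 0 passed the threshold in limma, beside 0.745% of all probe sets tested. Before adjustment, 1 gene was lower and 0 were higher at p under 0.05 in limma, beside 4.55% and 3.44% of all probe sets. That gene was Zfand5, a proteasome activator known from muscle atrophy, at 192, 213 and 191 units in control and 171, 147 and 166 in E2, with no overlap (log2 difference -0.30, SE 0.13, limma adjusted p 0.587). The cap subunit Sem1 differed by -0.21, the assembly chaperone Psmg2 by -0.28 and the proteasome-bound thioredoxin-like Txnl1 by -0.19. Without both high 18S arrays these values were -0.12, -0.07 and -0.07, and without E2 replicate 2 alone that of Txnl1 was -0.014. Nfe2l1 differed by 0.03 and the maturation factor Pomp by -0.02, and the median of the list was -0.02.

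Of 14 genes for ubiquitin supply and delivery, 7 were tested under a single symbol and 0 passed the threshold in limma, beside 0.745% of all. Before adjustment, 1 gene was lower and 0 were higher at p under 0.05 in limma, beside 4.55% and 3.44% of all probe sets tested. That gene was Ubqln2, a shuttle that brings ubiquitinated proteins to the cap, at 93.4, 93.9 and 104 units in control and 65.6, 69.1 and 86.6 in E2. The groups did not overlap, and the log2 difference was -0.40 (SE 0.16, limma adjusted p 0.527). The shuttles Rad23b and Ubqln1 differed by 0.15 and 0.11, Nploc4, a cofactor of the segregase Vcp, by -0.12 (0.09 without both high 18S arrays), and Vcp itself by 0.03. The median of the list was 0.03.

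The 15 subunit probe sets that were not tested had no single value above 10.8 units. Of the subunit genes, Psma8 alone had no probe set tested. It is the alpha subunit of the testis, and gave 0.55 to 4.40 units over the 6 arrays. The 2 probe sets that shared only the letters were those of Psmc3ip, a recombination factor, and Psme3ip1, a binding partner of Psme3. They differed by -0.37 and -0.22 on the log2 scale, with unadjusted p of 0.179 and 0.193 in limma.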

How the data were processed

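RNA was hybridised to 6 Affymetrix mouse expression arrays, 3 control and 3 E2, with groups and replicate numbers taken from the labels. The authors converted the scans with the manufacturer's GeneChip Operating Software and Expression Console and deposited 1 linear intensity per probe set and array. How signals were summarised, background-corrected and scaled is not given in the sources used here. An array has no read depth, and the number of arrays limits the precision.

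Each array was divided by its median over the 22626 probe sets that are not controls and brought to a common median. A probe set was kept if its deposited values averaged 10 units or more in control or in E2, which left 14223. Log2 values were fitted in R 4.3.3 with limma 3.58.1 (lmFit, then eBayes with trend) as a two-sided test of E2 minus control, and p-values were adjusted by Benjamini-Hochberg over all 14223, at a threshold of 0.05. The test was checked on simulated data. Exact permutation tests were used for the ratios.

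Symbols came from the platform annotation, updated by gene identifier, with 20380 probe sets under 1 symbol, 691 under several and 1555 under none. Apart from Psme2, only single-symbol probe sets were named. A gene was given by its brightest tested probe set. The genes named are the immunoproteasome and catalytic subunits, the chaperones and other activators, the 6 smallest p of the core and of the cap, the 4 smallest p of each related list, and examples named after their values were seen (Psmd2, Psmd4, Nfe2l1, Pomp, Vcp, Irf1). The members, lists and alternatives were chosen with earlier results of these data known. Same-numbered arrays deviated with correlations of 0.01, -0.05 and -0.06, so replicate numbers were not taken to pair samples. Alternatives were other centering, filters, floors and variance models, array weights, a replicate block and arrays left out.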

Additional observations from a re-analysis of the deposited data

How the results depend on the processing

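No subunit probe set had an adjusted p under 0.05 in limma under any alternative with a test, and no named gene did, the smallest adjusted p being 0.21, for Tap1 without E2 replicate 2. With replicate number as a block, 1 probe set was lower and 1 higher before adjustment (p under 0.05), no call on a member changed, and 88 of 14223 probe sets were called beside 106. The count higher with E2, 1 in the report, was 0 on values as deposited, with the 100-unit filter and without both high 18S arrays, and 2 after quantile normalization. Without the variance trend, without moderation and with array weights it was 1, the dim Psmd4 probe set in place of Psmb8. It was 0 to 2 with single arrays left out. The count lower, also 1, was 3 with no filter and 0 on values as deposited, with the 100-unit filter, without the variance trend, without moderation, with array weights and without both high 18S arrays. It was 0 to 3 with single arrays left out. The core median was 0.073 without both high 18S arrays. The immunoproteasome median was -0.0091 with the 100-unit filter, which kept 3 of its genes, and 0.037 with array weights. Of 626 values of named genes under alternatives, 573 kept their sign and 53 turned. With array weights, Psmb6 was 0.031, Psme3 0.12, Psme4 0.0029 and Psmd5 0.027. Without both high 18S arrays, Psmb10 was -0.11, Psme2 0.0058, Psmb6 0.087, Psmb7 0.036, Psme3 0.23, Psme4 0.026, Psmd5 0.14, Psma6 0.0019, Psmd6 0.047, Psmc1 0.046, Psmd13 0.019 and Nploc4 0.094. With a gene's probe sets averaged, Psme3 was 0.12 and Psmd13 0.023. After quantile normalization, Psme2 was 0.033, Psmb6 0.027, Psmb7 0.050, Psme3 0.021, Psmd5 0.033 and Psmd13 0.0071. On values as deposited, Psme2 was 0.052, Psmb6 0.050, Psmb7 0.026, Psme3 0.046, Psmd5 0.059, Psmd6 0.00059 and Psmd13 0.025. With single arrays left out, the range was -0.013 to 0.64 for Psmb9, -0.057 to 0.020 for Psme2, -0.059 to 0.058 for Psmb6, -0.076 to 0.0083 for Psmb7 and -0.17 to 0.18 for Psme3. It was -0.27 to 0.098 for Psme4, -0.14 to 0.095 for Psmd5, -0.39 to 0.020 for Psma6, -0.15 to 0.0033 for Psmd11 and -0.15 to 0.034 for Psmd6. It was -0.22 to 0.014 for Psmc1, -0.0029 to 0.069 for Psmd14, -0.083 to 0.0094 for Psmd13, -0.24 to 0.078 for Nploc4 and -0.035 to 0.19 for H2-K1. Most of these genes differed by less than 0.1 in the report. Psmb8 ran from 0.32 to 0.62 and Psmd9 from -0.61 to -0.22 over all alternatives. The cause of these shifts was not tested. Signals near 10 units, such as those of Psmb9, limit what 3 arrays per group can show.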
